A study of Mus musculus with 12 samples.

Results

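Among the peaks of 5-methylcytosine (5mC) and 5-hydroxymethylcytosine (5hmC) mapped in the E14.5 mouse cortex, those annotated far from a gene start were described. Far peaks were defined by position, as peaks annotated upstream or downstream of a gene and more than 200 kb from its transcription start site (TSS). By this rule, 1527 of 55085 5mC peaks (2.77%) and 2602 of 47478 5hmC peaks (5.48%) were far, together 4129 of 102563. No measured level entered the choice.

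Cells came from embryos heterozygous for both the Btg2-RFP and the Tubb3-GFP reporter, which the compared populations therefore all carried. FAC-sorting separated proliferative progenitors (PP, neuronal stem cells negative for both reporters), differentiative progenitors (DP, neurogenic progenitors with RFP but no GFP) and neurons (GFP-positive). The populations rest on these reporters alone, so PP held every sorted cell without either colour. Barcoded DNA of the cell types, 300 ng each and sheared to 250 bp, was mixed before each pull-down, and the series held 6 immunoprecipitated and 6 input samples. Each table gave 1 pooled log2 level per peak and cell type, the authors' mean, with neither read depth nor replicate values, so differences between cell types had no spread and were not tested. In the authors' earlier RNA-seq values, on a scale the tables do not name, Pax6 was listed at 25720 (PP), 15955 (DP) and 1212 (neurons), Eomes peaked in DP at 50497 and Dcx in neurons at 119166, whereas the microglial gene Csf1r and the endothelial gene Cldn5 were at most 246.8 and 78.4. The interneuron genes Gad1 and Dlx2 were highest in neurons, at 3055 and 2227, against 32.3 and 393 in PP, and the part of such cells in the values below was not tested.

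5mC is written on cytosines, mostly at CpG, by DNA methyltransferases, and TET enzymes oxidise it to 5hmC, a mark known to be abundant in neurons. In the brain, 5hmC is known to accumulate within the bodies of active genes and at enhancers. Long gene-free intervals, often called gene deserts, commonly flank genes for developmental transcription factors and cell adhesion molecules, and can hold enhancers acting over long distances.

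The tables gave positions but no bases. Letters could be shown for the 13 far peaks that reached into a RefSeq promoter window (250 bases before to 50 after a gene start, GRCm38.p6, the mm10 coordinates), mostly of long noncoding RNAs. Those printed were chosen because RefSeq holds their letters, outside the rule for named peaks, and the site in Zfhx3 also because it lies in the largest 5mC cluster. The 5mC stretches are on the genome's plus strand, 5′ to 3′, in lower case with each CpG in capitals, the dinucleotide that carries 5mC.
Promoter of Gm51549 inside Zfhx3, chr8:108394050-108394171: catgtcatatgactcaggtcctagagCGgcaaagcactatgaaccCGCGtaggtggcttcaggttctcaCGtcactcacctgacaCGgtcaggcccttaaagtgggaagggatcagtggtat
Promoter of Gm34297 in the far region annotated to Atp2b1, chr10:98537385-98537529: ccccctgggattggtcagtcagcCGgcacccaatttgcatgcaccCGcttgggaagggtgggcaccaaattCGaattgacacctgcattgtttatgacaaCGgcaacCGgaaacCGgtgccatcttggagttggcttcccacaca
Promoter of Gm28075, annotated to 7SK, chr7:37140297-37140419: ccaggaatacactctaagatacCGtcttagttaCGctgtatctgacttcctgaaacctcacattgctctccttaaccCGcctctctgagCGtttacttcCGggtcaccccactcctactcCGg
Promoter of 4930590L20Rik, annotated to Kcnt2, chr1:140656574-140656652: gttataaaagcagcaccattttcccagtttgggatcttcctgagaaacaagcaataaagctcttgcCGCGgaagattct
These held 5, 6, 6 and 2 CpG respectively, the last covering 79 of its peak's 127 bases. At the Zfhx3 site, 5mC stood at 5.33 (PP), 5.36 (DP) and 4.93 (neurons), close to the median of all 5mC peaks in each cell type (5.06, 5.05 and 4.87). At the Atp2b1 site neurons were highest instead, with 5.43, 5.58 and 5.79.

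5hmC stretches are written in the same way.
Promoter of Gm33045, annotated to Plk2, chr13:110627839-110627991: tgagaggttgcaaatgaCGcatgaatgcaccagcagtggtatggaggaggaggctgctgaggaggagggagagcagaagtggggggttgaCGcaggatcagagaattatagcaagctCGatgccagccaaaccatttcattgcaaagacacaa
Promoter of Gm29771, annotated to Ttll7, chr3:147096106-147096144: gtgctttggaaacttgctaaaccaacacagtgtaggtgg
Promoter of Gm41966, annotated to Gm15443, chr1:148712521-148712650: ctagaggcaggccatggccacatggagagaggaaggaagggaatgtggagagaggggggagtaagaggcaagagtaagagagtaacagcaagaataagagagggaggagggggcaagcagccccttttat
Promoter of Gm3213, annotated to Oprm1, chr10:6362896-6363004: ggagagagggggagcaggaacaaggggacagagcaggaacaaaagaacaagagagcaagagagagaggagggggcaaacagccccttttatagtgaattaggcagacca
Promoter of Gm32171, annotated to Gm10698, chr9:33254246-33254403: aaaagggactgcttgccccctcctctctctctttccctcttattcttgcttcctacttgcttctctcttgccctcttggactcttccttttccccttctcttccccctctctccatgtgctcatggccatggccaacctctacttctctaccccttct
Promoter of 4930441H08Rik, annotated to Mctp2, chr7:71909445-71909516: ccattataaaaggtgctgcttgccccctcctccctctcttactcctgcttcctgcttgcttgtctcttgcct
Only the stretches at Gm33045 (3 CpG) and at Gm41278 near Cdh18 (1 CpG, not shown) held any CpG, against all 4 of the 5mC stretches, while 79.3% of 120-base windows cut from RefSeq promoters held at least 1. The remaining 7 of 9 5hmC stretches held none, although 5 of these 7 covered only part of their peak. Those at Gm21388, Gm29771 and A830019L24Rik were only 2, 39 and 49 bases long, against 79 to 145 bases for the 5mC stretches. The last 4 printed also share letters, as described below. With such lengths and shared letters, the counts of CpG in the marks are not a like comparison. At Gm41966 and Gm3213, A and G made up 76.9% and 78.0% of the letters, and at Gm32171 and 4930441H08Rik 19.6% and 23.6%, the complementary bias on the printed strand.

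The last 4 of these 5hmC stretches, on 4 chromosomes, shared letters. A run of 13 bases, gaggagggggcaa on either strand, was present in all 4, and Gm41966 and 4930441H08Rik shared 27 bases on opposite strands. The run was picked after these stretches had been read, so its presence in them is a description. Over all 32851 RefSeq promoter windows it occurred in 15 (0.0457%). A 5hmC peak lay in 6 of these 15 windows (40%), against 413 of all windows (1.26%), but the 6 include the 4 far windows from which the run was taken. A 5mC peak lay in 0 of the 15, against 365 of all windows (1.11%). At these 4 sites the 5hmC level was 4.40 to 5.34 in PP, 4.06 to 5.38 in DP and 3.83 to 5.08 in neurons. Relative to the median of all 5hmC peaks, the change from PP to neurons was between -0.49 and -0.17, under 1.5-fold at each.

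A position in a gene desert was borne out by RefSeq for some of the far peaks only. The distances were measured by the authors to the TSS of the annotated gene, and they fell within 1000 bp of the distance to the RefSeq start for 755 of 855 5mC (88.3%) and 1216 of 1401 5hmC far peaks (86.8%) for which that start could be set beside them. By RefSeq gene spans, however, 531 far 5mC peaks (34.8%) and 689 far 5hmC peaks (26.5%) lay within a gene of some kind, and 343 (22.5%) and 441 (16.9%) within a protein-coding gene. Over 200 kb from every coding gene lay 825 (54.0%) and 1613 (62.0%), and over 200 kb from every RefSeq gene 93 (6.09%) and 231 (8.88%). For downstream peaks the distance includes the length of the annotated gene, so 41 of 659 matched 5mC and 55 of 1113 matched 5hmC far downstream peaks lay outside that gene but within 50 kb of its edge. The annotated gene was the nearest coding gene for 49.4% and 50.3% of far peaks.

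The far peaks were unevenly spread over the chromosomes. On chromosomes 2, 4, 11 and X, 0 to 0.426% of 5mC peaks and 0.694 to 1.78% of 5hmC peaks were far, against 1.55 to 5.77% and 3.26 to 9.62% on the other 16. Counted by RefSeq coding genes instead, 1.72% of the 5mC and 3.99% of the 5hmC peaks on those 4 chromosomes lay over 200 kb from a coding gene, against 2.81% and 6.08% on the other 16. The 4 chromosomes also had the largest share of annotated gene names that RefSeq does not list as coding (33.1 to 41.9%, against 22.0 to 31.1%). The part of this annotation in the uneven spread was not tested. Without these chromosomes, 12.3% rather than 12.1% of far 5hmC peaks were higher in neurons than in PP, a comparison described below.

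Of the far 5mC peaks, 770 lay upstream and 757 downstream, with a median distance of 275 kb and quartiles at 230 and 356 kb. The far 5hmC peaks (1344 upstream, 1258 downstream) lay at a median of 295 kb, with quartiles at 236 and 393 kb. Distances over 500 kb were found for 130 5mC and 315 5hmC peaks. The farthest 5mC peaks lay 1085 kb downstream of D3Ertd751e (3.96, 3.58 and 4.33, levels given here and below in the order PP, DP, neurons) and 998 kb downstream of Cdc73, which encodes a subunit of the Paf1 transcription complex (4.09, 4.80 and 3.73). The farthest 5hmC peaks lay 1176 kb downstream of Olfm4, encoding a secreted olfactomedin (4.77, 4.65 and 4.46), and 1127 kb downstream of Cdc73 (5.19, 5.27 and 4.64). Just inside the limit lay a 5mC peak at 200.044 kb from Gm5083 (4.63, 4.29 and 4.77) and a 5hmC peak at the same distance from Gm5506 (4.73, 5.01 and 4.34). Just outside it lay a 5mC peak near Lmo4 (5.24, 5.52 and 5.18) and a 5hmC peak 199.861 kb from Rwdd3 (4.83, 4.72 and 4.97). Far peaks were as narrow as the rest, with median widths of 143 bp (5mC) and 162 bp (5hmC) against 145 and 165 bp over all peaks.

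The levels of both marks at far peaks were close to those of the other peaks, and differed most in the order of the cell types. For 5mC, the medians were 4.97 (PP), 4.98 (DP) and 4.86 (neurons), against 5.09, 5.09 and 4.90 for peaks in genes. Median 5hmC levels of the far peaks were 4.76, 4.73 and 4.67, whereas in genes they were 4.69, 4.7 and 4.79. Neurons were thus lowest at far 5hmC peaks and highest at genic ones. The upper end of the 5mC range was lower at far peaks, with the 95th percentile in PP at 6.61 against 6.87 in genes. At the low end of 5hmC, 68 far peaks (2.61%) had a PP level under 3, against 6.60% of the peaks in genes.

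**Figure D1:**
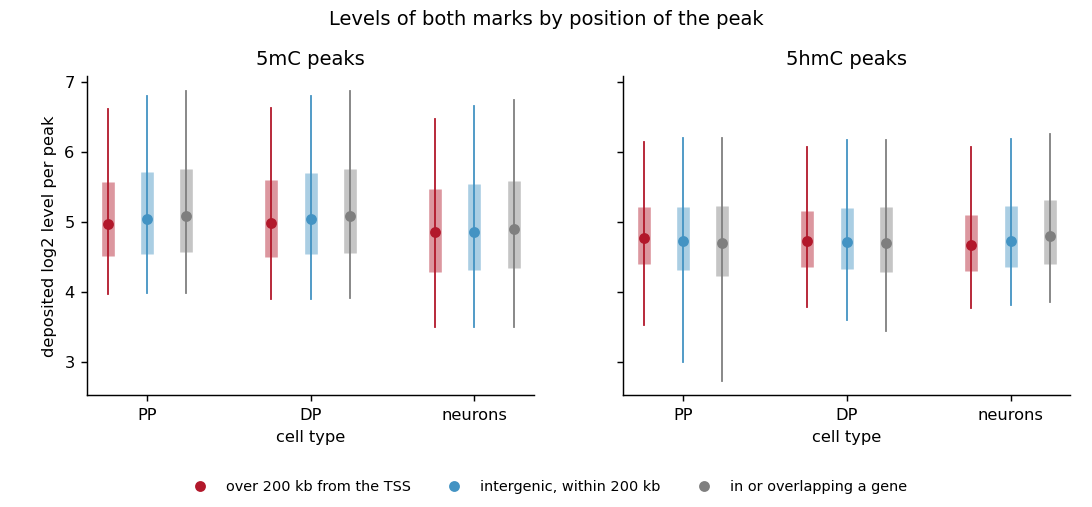
Deposited log2 levels of 5mC peaks (left) and 5hmC peaks (right) in PP, DP and neurons, for far peaks (red), nearer intergenic peaks (blue) and peaks in genes (grey). Points are medians over peaks, thick bars the quartiles and thin lines the 5th to 95th percentiles, all over peaks and not replicates, and the red 5hmC medians decrease from 4.76 to 4.67 where the grey ones increase from 4.69 to 4.79.

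Among the far 5mC peaks with the highest mean level was one 316 kb downstream of Mir1907 and 81.8 kb from Trps1, which encodes a zinc-finger repressor (8.19, 8.24 and 8.38). For 5hmC the highest were a peak 241 kb downstream of Cyp26b1, the gene of a retinoic acid-degrading enzyme (7.85, 7.91 and 7.63), and one 273 kb downstream of Gm15627 (7.76, 7.64 and 7.88). None of these 3 passed the 1.5-fold defined next in any step.

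To compare the cell types, the earlier level of each peak was subtracted from the later, and the difference was centred on the median of all peaks of that mark. Over all peaks that median was -0.0040 from PP to DP, -0.176 from DP to neurons and -0.171 from PP to neurons for 5mC, and -0.0035, -0.023 and -0.081 for 5hmC, so each change below is relative to it. A peak was counted as higher or lower when the centred change reached 0.58, that is 1.5-fold.

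Gains of 5hmC were less common at far peaks than over all peaks. From PP to DP, 193 far 5hmC peaks (7.42%) were higher and 129 (4.96%) lower, against 11.3% and 4.77% of all 5hmC peaks. From DP to neurons, 235 (9.03%) were higher and 241 (9.26%) lower, against 16.6% and 7.22%. Over both steps, 314 (12.1%) were higher and 225 (8.65%) lower, against 22.2% and 7.91% of all, 20.3% and 8.20% of nearer intergenic peaks, and 26.8% and 7.32% of peaks in genes. The median change of the far peaks from PP to neurons was -0.092, that of peaks in genes 0.073. Higher peaks therefore made up 58.3% of the far 5hmC peaks past the fold from PP to neurons, and 47.6% without centring, against 73.7% and 64.8% over all peaks.

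5mC differed less from its background. From PP to DP, 87 far 5mC peaks (5.70%) were higher and 85 (5.57%) lower, against 4.72% and 5.56% of all 5mC peaks. In the step from DP to neurons 106 (6.94%) were higher and 157 (10.3%) lower, against 5.23% and 9.48%. From PP to neurons 111 (7.27%) were higher and 149 (9.76%) lower, against 5.15% and 10.4%. The split depends on the centring, since without it higher peaks made up 12.5% rather than 40.3% of the far 5mC peaks past the fold from DP to neurons, and 17.4% rather than 42.7% from PP to neurons. Over all 5mC peaks those shares were 12.8% against 35.6%, and 11.6% against 33.2%.

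The shares were then read by distance from the TSS. Among intergenic 5hmC peaks, the share higher in neurons than in PP was 20.3% under 50 kb, 22.1% at 50 to 100 kb and 17.8% at 100 to 200 kb. Beyond the limit it was 14.2% at 200 to 300 kb (n = 1350), 11% at 300 to 500 kb (n = 937) and 6.03% over 500 kb (n = 315). Lower 5hmC peaks made up between 6.67% and 9.11% in all 6 ranges. For 5mC, the share higher in neurons was 5.16%, 5.32% and 5.96% in the 3 ranges up to 200 kb, and the share lower 9.45%, 12% and 12.6%. Farther out, the share higher was 5.38% at 200 to 300 kb (n = 892), 9.50% at 300 to 500 kb (n = 505) and 11.5% over 500 kb (n = 130), and the share lower was 10.4%, 9.90% and 4.62%. Over 500 kb the centred shares of the marks therefore stood in the opposite order to that within 50 kb, where 20.3% of 5hmC and 5.16% of 5mC peaks were higher. Each mark is centred on its own median, so its shares are relative to that mark alone, and the order without centring was not counted. The uncentred median changes over 500 kb were -0.018 for 5mC and -0.24 for 5hmC, a gain in neither. The 130 5mC peaks beyond 500 kb included only 15 that were higher and 6 that were lower.

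**Figure D2:**
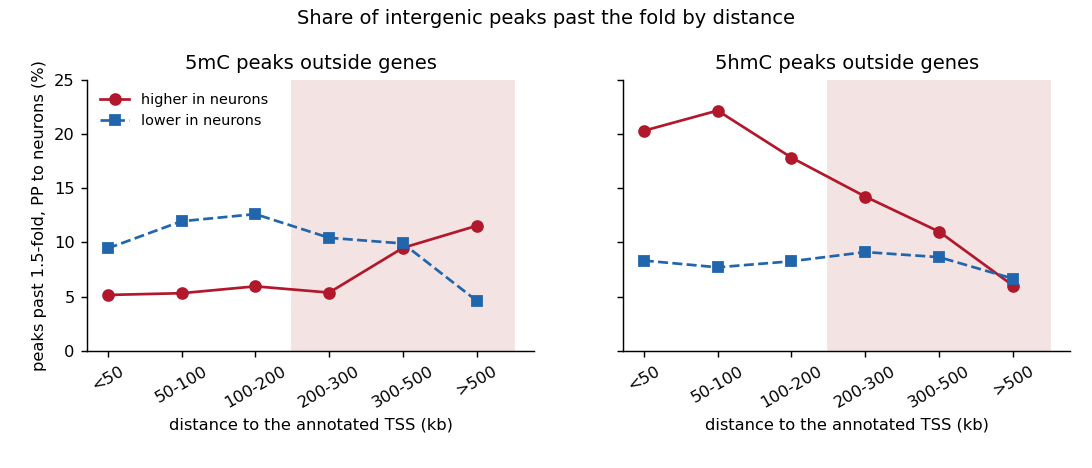
Percentage of intergenic peaks at least 1.5-fold higher (red) or lower (blue) in neurons than in PP after centring, by distance to the annotated TSS in kb, for 5mC (left) and 5hmC (right), with the far peaks on the shaded ground. The red 5hmC line runs from 22.1% at 50 to 100 kb to 6.03% over 500 kb, and the 5mC lines meet at 300 to 500 kb (9.50% higher, 9.90% lower) and stand apart over 500 kb (11.5% and 4.62%).

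The size of the gene-free interval was then taken from RefSeq, without the deposited distance. A total of 1184 far 5mC and 2161 far 5hmC peaks lay outside coding genes, in intervals with a median length of 928 and 1174 kb between the flanking coding genes. Far 5hmC peaks were higher in neurons than in PP in 14.0% of cases in intervals up to 500 kb (n = 229), 12.7% at 500 to 1000 kb (n = 694), 11% at 1000 to 2000 kb (n = 745) and 4.87% in intervals over 2000 kb (n = 493). Nearer intergenic 5hmC peaks in the same interval classes gave 17.2%, 17.0%, 12.9% and 5.31%. In the longest intervals, then, few 5hmC peaks of either class were higher in neurons, wherever they lay. Far 5mC peaks were higher in 7.50%, 7.24%, 8.59% and 11.6% of cases and lower in 12.5%, 7.02%, 9.85% and 3.49%, the last class holding 172 peaks. Within the 4 interval classes nearer 5mC peaks were higher in 5.72%, 6.45%, 8.38% and 8.02%.

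**Figure D3:**
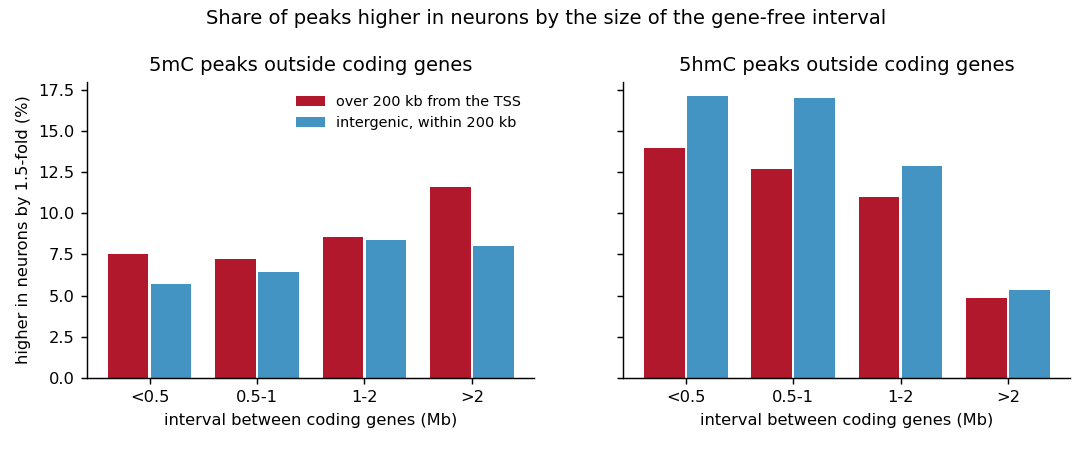
Percentage of peaks outside coding genes that were at least 1.5-fold higher in neurons than in PP, by length in Mb of the interval between the flanking RefSeq coding genes, for far peaks (red) and nearer intergenic peaks (blue). Among 5hmC peaks both colours decrease to about 5% in intervals over 2 Mb, and among 5mC peaks the red bars increase from 7.50% to 11.6%.

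Far peaks inside and outside RefSeq coding genes differed in both marks. Of the 441 far 5hmC peaks inside, 20% were higher in neurons than in PP, against 10.5% of the 2161 outside and 26.8% of the peaks annotated in genes. For 5mC, 15.2% of the 343 inside were lower and 3.5% higher, against 8.19% and 8.36% of the 1184 outside, and 10.7% and 4.85% of the peaks annotated in genes. The 231 5hmC peaks over 200 kb from every RefSeq gene were higher in 5.19% and lower in 5.63% of cases, and the 93 5mC peaks so placed were higher in 12.9% and lower in 3.23%.

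Most 5hmC gains began from a low level. Of the 314 far 5hmC peaks higher in neurons, 206 (65.6%) had a PP level under 4, and the median levels of the 314 were 3.71 (PP), 4.26 (DP) and 4.86 (neurons). Fewer far than genic 5hmC peaks were that low in PP (10.3% against 18.5%). Among peaks with a PP level under 4, 76.6% of far and 87.8% of genic peaks were higher in neurons, and between 4 and 5 the shares were 6.33% and 17.4%. Far peaks thus had the smaller share in both classes of PP level. Of nearer intergenic 5hmC peaks under 4 in PP, 83.5% were higher. A peak was kept when found in all replicates of any 1 cell type. A peak low in PP may therefore be listed for its level in another cell type. Changes from or to a low level are thus in part set by how peaks were chosen, in both marks. In 5mC, 109 of the 149 far peaks lower in neurons (73.2%) ended under 4, with median levels of 4.80 (PP), 4.51 (DP) and 3.64 (neurons) over the 149.

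The far peaks with the largest steps, among those with a level at or above the median in the higher cell type, show the size of single changes. The largest 5mC loss from PP to DP lay 258 kb downstream of Ndufs4, a subunit gene of respiratory complex I, and inside the gene Arl15. There 5mC was 6.34 (PP), 4.89 (DP) and 3.15 (neurons), a centred change of -1.45 and then -1.56. Next came a peak 300 kb downstream of Gm5083 and 310 kb from Jarid2, which encodes a Polycomb partner, with 5.27, 4.26 and 1.62. Both loci continued to lower levels in neurons. The largest 5mC gains from PP to DP were smaller, 1.18 at a peak 221 kb upstream of the MAP kinase phosphatase gene Dusp4 (4.28, 5.46 and 4.95) and 0.83 at one 253 kb downstream of Tsn (5.14, 5.97 and 5.76). From DP to neurons the largest 5mC losses were -2.19 at a peak 339 kb upstream of Arglu1 (5.94, 6.10 and 3.73) and -1.89 at one 248 kb upstream of Id2 (5.92, 5.12 and 3.06). Id2 encodes an inhibitor of basic helix-loop-helix factors, and its listed expression was 1390 (PP), 2190 (DP) and 10808 (neurons). The largest 5mC gains in that step were 1.27 at 388 kb upstream of Lrfn5, a synaptic adhesion gene (4.37, 3.82 and 4.92), and 1.26 at 725 kb upstream of Grm7, a metabotropic glutamate receptor gene (5.09, 4.20 and 5.28). In both cases DP was the lowest of the 3 cell types.

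Under the same limit on the level, the largest 5hmC steps were as follows. From PP to DP the largest gain, 2.96, lay 278 kb downstream of Gm5083 (2.10, 5.05 and 3.80) on chromosome 13, as did the 5mC loss annotated to the same gene. A gain of 1.68 was found 277 kb upstream of Tmem126b and inside Dlg2, a gene of the postsynaptic density (3.35, 5.02 and 4.97). Losses of 5hmC from PP to DP reached -1.25 at 483 kb upstream of Grm7 (5.04, 3.79 and 4.29) and -1.20 inside Plcl1, annotated 205 kb upstream of Gm6644 (4.88, 3.67 and 4.17). From DP to neurons, 5hmC was 4.06 higher at a peak 262 kb upstream of Lrrn1, a leucine-rich repeat membrane protein gene (1.25, 0.97 and 5.00), and 3.28 higher at a peak inside Dennd1a, annotated 245 kb downstream of the polarity gene Crb2 (1.64, 1.55 and 4.80). At both, PP and DP were alike and low. Losses in that step among peaks within the limit reached -2.18 at 231 kb downstream of Ndufs4, again inside Arl15 (4.28, 5.25 and 3.04), and -1.80 at 232 kb upstream of Rgma, the gene of a repulsive guidance molecule (5.33, 5.77 and 3.94). These 2 loci had their highest 5hmC in DP.

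Far peaks were grouped by position. With peaks of 1 mark chained across gaps of at most 50 kb, 868 far 5mC peaks (56.8%) fell into 159 clusters of 3 or more, and 1814 far 5hmC peaks (69.7%) into 337, with a median of 4 peaks in both. Standing alone were 373 (24.4%) and 366 (14.1%). Of the 5mC clusters, 105 (66.0%) overlapped a 5hmC cluster, and 107 of the 5hmC clusters (31.8%) overlapped a 5mC cluster. Grouped in the same way, 90.5% of all 5mC and 87.4% of all 5hmC peaks were in clusters, and 82.2% and 76.8% of nearer intergenic peaks. A share at a fixed gap depends on how densely peaks lie, and far peaks are few. The density was not adjusted for, so these shares do not tell how grouped far peaks are for their number. With gaps of 20 kb the shares were 31.8% and 37.0% of far peaks, against 72.2% and 59.4% of all peaks.

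Clustered and single far peaks differed in their 5hmC changes. Higher in neurons than in PP were 13.8% of clustered, 10.2% of paired and 5.74% of single far 5hmC peaks, against 22.2% of all 5hmC peaks. Lower were 8.10%, 9.72% and 10.1%, against 7.91% of all. Some large clusters lie inside coding genes, where 20% of far 5hmC peaks were higher against 10.5% outside. The part of this position in the difference was not tested. For 5mC, 6.68% of clustered and 9.92% of single peaks were higher, and 11.2% and 8.31% lower, against 5.15% and 10.4% of all 5mC peaks. Of 337 5hmC clusters, 127 held no peak past the fold from PP to neurons, 93 held only higher, 73 only lower and 44 both. Of 159 5mC clusters, the numbers were 70, 31, 42 and 16. In no cluster of either mark did every peak pass the fold in 1 direction, and at least 50% of the peaks were higher in 19 5hmC clusters and 2 5mC clusters, and lower in 5 and 6. The median SD of the change within a cluster was 0.39 for 5hmC and 0.38 for 5mC, against an SD of 0.68 and 0.56 over all far peaks. A median of SDs from small clusters and 1 SD over all far peaks are unlike measures. Whether the peaks of a cluster change alike was not tested.

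The largest 5mC cluster held 20 peaks over 222 kb inside Zfhx3 (chr8:108282187-108504097), the gene of a zinc-finger homeodomain factor, upstream of its annotated TSS. Its median level was 4.78 (PP), 4.78 (DP) and 4.75 (neurons). The changes from PP to neurons ranged from -3.07 to 0.56, with 3 of 20 lower and 0 higher. Over the same gene, 12 far 5hmC peaks had medians of 4.30, 4.55 and 4.83, with 8 higher in neurons and 0 lower. The next 5mC clusters, of 18 and 17 peaks, lay on chromosome 15 between Prickle1 and Adamts20, and the next held 16 peaks over 208 kb between Slc16a7 and Lrig3 on chromosome 10 (medians 4.79, 4.96 and 4.6).

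The largest 5hmC cluster, of 23 peaks over 277 kb, lay in that same chromosome 15 interval. The second held 21 peaks over 318 kb inside Rbfox1 (chr16:6152037-6469901), the gene of a neuronal splicing regulator whose listed expression was 53.6 (PP), 379 (DP) and 6776 (neurons). Its 5hmC levels were 4.93, 4.78 and 5.02 in median, with 4 peaks higher in neurons and 0 lower, and 1 peak reaching a change of 3.24, whereas the median change was -0.14. The 16 far 5mC peaks annotated to Rbfox1 had medians of 5.08, 4.82 and 4.37, and 6 of them were lower in neurons with 0 higher. The next 5hmC clusters held 19 peaks each, over 217 kb between Auts2 and Castor2 on chromosome 5 (medians 4.78, 5.06 and 5.02) and over 239 kb between Tafa5 and Zdhhc25 on chromosome 15 (5.09, 4.89 and 5.01). In the cluster between Auts2 and Castor2, which lay nearer to Castor2, 6 of 19 peaks were higher in neurons and 1 lower.

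No interval held more far peaks than the 672 kb between Prickle1, a planar cell polarity gene, and Adamts20, encoding a secreted metalloprotease (chr15:93596267-94268313). It carried 35 5mC and 30 5hmC far peaks. Median 5mC levels were 4.75, 4.80 and 4.72 in PP, DP and neurons, with 4 peaks higher and 7 lower in neurons. For 5hmC the medians were 4.74, 4.71 and 4.75, with 8 higher and 4 lower. The medians were flat although 23 of the 65 peaks passed the fold. Over all peaks, 22.2% were higher and 7.91% lower in 5hmC, and 5.15% and 10.4% in 5mC. Over all far peaks the shares were 12.1% and 8.65%, and 7.27% and 9.76%. Counts in the single clusters above, and in the intervals and genes here and below, are to be read beside these shares. Whether any locus differs from them was not tested. Changes were largest toward Adamts20. There, 5hmC was 0.67 (PP), 2.53 (DP) and 5.29 (neurons) at a site 251 kb from the annotated TSS, and the overlapping 5mC peak was 4.20, 4.22 and 3.05.

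**Figure D4:**
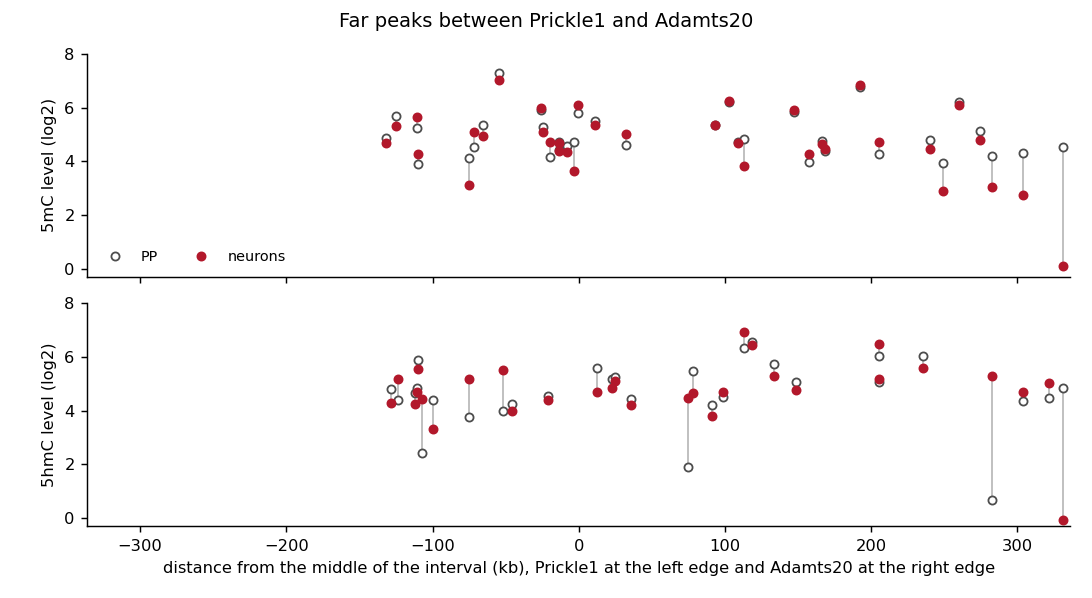
Far peaks in the interval between Prickle1 and Adamts20, with 5mC above and 5hmC below, as distance in kb from the middle of the interval against the deposited log2 level in PP (open circles) and neurons (red). In 23 of the 65 peaks the centred change passes the fold, and a site near the Adamts20 edge is near 0 in neurons for both marks.

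The other intervals among the 12 with the most far peaks held 32 to 54. The 4420 kb between Olfm4 and Pcdh17, a protocadherin gene, held 54 (19 5mC, 35 5hmC), with 5hmC medians of 4.88, 4.80 and 4.67. Between Rnf144b and Id4, another inhibitor of basic helix-loop-helix factors, lay 47 in 1013 kb. In that interval 7 of 21 5hmC peaks were higher in neurons and 2 lower, and 4 of 26 5mC peaks were lower and 0 higher. Between the cadherin genes Cdh11 and Cdh5 lay 45 in 1316 kb, where 4 of 15 5mC peaks were higher and 1 lower, and 2 of 30 5hmC peaks were higher and 2 lower. The 38 far peaks between Ttll7 and Adgrl2, the gene of the adhesion receptor latrophilin 2, included 24 5hmC peaks with medians of 4.30, 4.54 and 4.74, of which 9 were higher in neurons and 3 lower. By contrast, 0 of 26 5hmC peaks between Gm6749 and Grm7 were higher and 3 lower (4.88, 4.77 and 4.6). The 5hmC peaks higher in neurons were 3 of 28 between Agtr1b and Tbl1xr1 (2 lower), and fewer in the intervals of Fam98a and Crim1 (1 of 28, 2 lower), Kcnt2 and Cdc73 (1 of 26, 0 lower) and Celf4 and Pik3c3 (2 of 30, 2 lower). Far peaks outside coding genes fell into 383 such intervals, and the 121 intervals with at least 10 held 67.9% of them.

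Far peaks were annotated to 453 (5mC) and 534 (5hmC) genes, of which RefSeq matched 386 and 453 by symbol and listed 311 and 343 as coding. Over both marks there were 580 genes, and the 146 with at least 10 far peaks accounted for 2447 of the 4129 (59.3%). Most peaks were assigned to Olfm4 (45), Rbfox1 (43), Prickle1 (37), Fam19a5, encoding a secreted brain peptide now named Tafa5 (36), Cdc73 (35), the ribosomal pseudogene Rpl13a-ps1 (32), Zfhx3 (32), Pcdh17 (31), the pigment enzyme gene Dct (29) and the lipid kinase gene Pik3c3 (29). Of these 10, only Zfhx3 and Rbfox1 had far peaks within their own RefSeq span, all 32 and 39 of 43. All 29 of the peaks given to Dct lay inside Gpc6, a glypican gene spanning 1055 kb. The 15 5hmC peaks among them had medians of 4.52, 4.46 and 4.68, with 4 higher in neurons and 0 lower.

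Within coding genes, 784 far peaks were found in 117 genes. After Rbfox1, Zfhx3 and Gpc6, the most were in the transcription factor genes Foxp1 (27) and Npas3 (24), in the adhesion gene Sdk1 (23), in St6galnac3 (23) and in the protocadherin gene Pcdh15 (22). In none of these 5 was the annotated gene the host itself. Among the 12 hosts with most far peaks, Arl15 and Esrrg, a nuclear receptor gene, had the highest median 5hmC change from PP to neurons, 1.38 and 1.09, with 5 of 9 and 7 of 10 peaks higher. The same Arl15 region had a median 5mC change of -0.89 with 4 of 6 peaks lower. In Cntnap2, a neurexin-family gene and the longest of these hosts at 2241 kb, 0 of 13 5hmC peaks were higher and 0 of 4 5mC peaks lower.

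Where far peaks of both marks overlapped by at least 1 bp, they formed 196 pairs. These were 12.8% of the far 5mC peaks, against 12.2% of all 5mC peaks, and 7.53% of the far 5hmC peaks, against 14.2% of all 5hmC peaks and 16.2% of those in genes. The lower share thus concerned 5hmC peaks. At the 196 sites, 74 (37.8%) were higher in 5hmC from PP to neurons, 43 (21.9%) lower in 5mC and 32 (16.3%) both. In all 6735 overlapping pairs these shares were 43.1%, 24.4% and 19.0%. Across the 196 pairs the changes of the marks had a Spearman correlation of -0.45, and across all pairs -0.51. Both marks came from the same DNA and the same cells, neighbouring pairs share clusters, and the pairs are not independent, so this is a description.

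Ranked by the difference between the changes of the marks, the leading far pair was the Adamts20 site given above (centred changes of 4.7 for 5hmC and -0.98 for 5mC). The next lay 208 kb downstream of Gm10051 in the Auts2 to Castor2 interval (chr5:133683131-133683291), with 5hmC at 2.05, 4.43 and 5.11 and 5mC at 5.38, 4.92 and 2.78. Upstream of Kirrel3, the gene of an immunoglobulin adhesion protein, a pair at 240 kb had 5hmC at 0.67, 3.26 and 4.86 and 5mC at 4.57, 4.85 and 3.17. Here the 5hmC gain was already 2.6 in DP while 5mC was not yet lower. Inside Zfhx3 (chr8:108496416-108496533), 5hmC was 2.37, 4.52 and 4.65 and 5mC 4.81, 4.7 and 1.57. A pair inside Hivep3, a zinc-finger gene, had 5hmC at 2.62, 4.13 and 5.56 and 5mC at 4.72, 4.03 and 2.41. The sixth, 367 kb upstream of Gpc6 and 33.3 kb from Gpc5, had 5hmC at 1.32, 3.19 and 4.29 and 5mC at 4.24, 4.24 and 2.02. In all 6 pairs the 5mC change was larger from DP to neurons than from PP to DP. All 6 began from 5hmC levels under 3 in PP, a level that 2.61% of far 5hmC peaks had. Ranking by the change favours such a start.

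Sites lower in both marks were rare, 3 of 196 far pairs and 32 of 6735 in all, and those higher in both numbered 0 and 27. The 3 were singled out after their values were seen. At 4.82 kb from Adamts20 (chr15:94263375-94263493), 5mC was 4.55, 3.75 and 0.11 and 5hmC 4.84, 4.55 and -0.05, and both neuronal values were the lowest in their table, shared by 38 5mC and 4 5hmC peaks in all, so that these changes are limits. The other two lay inside Arl15 and were annotated to Ndufs4. There, 5mC went from 5.46 to 4.63 and 1.1 at one site and from 6.34 to 4.89 and 3.15 at the other, and 5hmC was highest in DP at both (5.25 and 4.69) before reaching 3.04 and 3.39 in neurons.

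**Figure D5:**
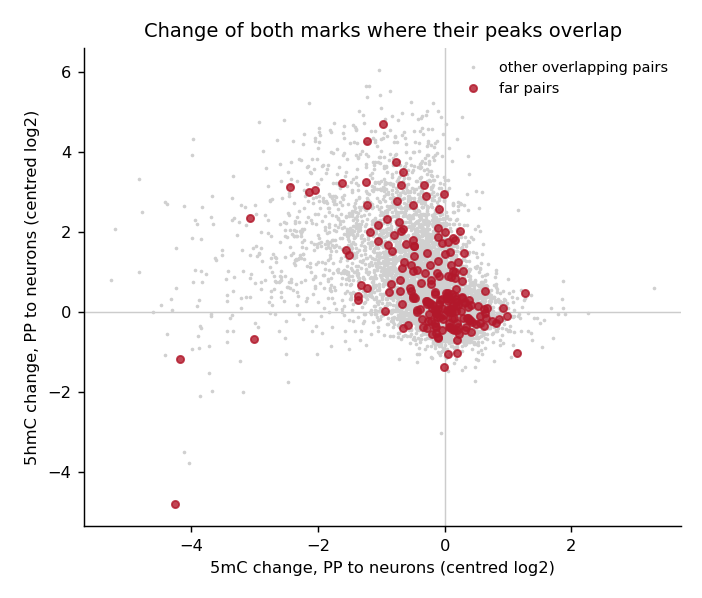
Centred change of 5mC (horizontal) and 5hmC (vertical) from PP to neurons, in log2 units, for the 196 overlapping far pairs (red) and the other overlapping pairs (grey). Most red points lie near 0 on both axes, 32 lie past the fold at the upper left (higher 5hmC, lower 5mC), and 3 at the lower left, where both marks were lower in neurons.

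Gene lists chosen with earlier results of these data known were then read for the genes that flank far peaks. At least 1 far peak was annotated to 15 of 78 forebrain transcription factor genes with a 5mC peak (19.2%) and to 14 of 81 with a 5hmC peak (17.3%), against 3.15% and 4.16% of all annotated genes. For cell adhesion and synapse organisers the counts were 20 of 67 (29.9%) and 24 of 76 (31.6%), for axon guidance genes 10 of 43 (23.3%) and 11 of 44 (25%), for ion channels and neurotransmitter receptors 10 of 55 (18.2%) and 14 of 64 (21.9%), and for housekeeping genes 0 of 17 and 0 of 18. By RefSeq neighbours instead of the annotation, 33 of 108 forebrain factors (30.6%), 39 of 83 adhesion genes (47.0%), 14 of 49 guidance genes (28.6%), 20 of 70 channel and receptor genes (28.6%) and 0 of 30 housekeeping genes bordered an interval with far peaks, against 703 of 21900 coding genes (3.21%).

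At forebrain transcription factors, 30.9% of 81 far 5hmC peaks were higher in neurons than in PP and 4.94% lower. Over all far 5hmC peaks these shares were 12.1% and 8.65%, and over all 5hmC peaks 22.2% and 7.91%. Of 77 far 5mC peaks, 16.9% were lower and 3.9% higher. The shares were 9.76% and 7.27% of all far 5mC peaks, and 10.4% and 5.15% of all 5mC peaks. Zfhx3 contributed 12 of the 81 and 20 of the 77. It held 8 of the 25 higher 5hmC peaks and 3 of the 13 lower 5mC peaks, so 1 gene weighs on these shares. Sox2, the progenitor factor whose listed expression was 16755 in PP and 1652 in neurons, had 8 far 5hmC peaks (medians 4.24, 4.61 and 4.64), of which 3 were higher and 0 lower, and 11 far 5mC peaks (4.71, 4.52 and 4.14), of which 2 were lower. At Tshz1, a zinc-finger factor, 4 of 8 5hmC peaks were higher and 2 lower.

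Of 178 far 5hmC peaks at adhesion genes, 9.55% were higher and 7.87% lower. Of the 67 far 5mC peaks there, 8 (11.9%) were higher and 3 (4.48%) lower. Over all far peaks, 12.1% were higher and 8.65% lower in 5hmC, and 7.27% and 9.76% in 5mC. Over all peaks the shares were 22.2% and 7.91% in 5hmC, and 5.15% and 10.4% in 5mC. The lists below are to be read beside these shares too. Pcdh17 had 3 of 21 5hmC peaks higher and 2 lower (4.88, 4.88 and 4.73), the contactin gene Cntn5 1 of 21 higher and 2 lower (4.71, 4.77 and 4.62), and the cadherin gene Cdh10 1 of 16 higher and 2 lower (4.85, 4.87 and 4.69). At axon guidance genes 12.5% of 96 far 5hmC peaks were higher and 12.5% lower. Efnb2, an ephrin ligand gene, had 2 of 15 higher and 2 lower, the ephrin receptor gene Epha5 0 of 19 higher and 2 lower, and the plexin gene Plxna2 3 of 13 higher and 2 lower. Of the 29 far 5mC peaks at guidance genes 2 (6.90%) were higher and 1 (3.45%) lower. At channels and receptors, 5.88% of 51 far 5hmC peaks were higher and 9.80% lower, and of 23 far 5mC peaks 0 were higher and 2 lower. The glutamate receptor genes Grm7 and Grin2a had 0 and 1 of 8 peaks higher and 1 each lower, and the potassium channel gene Kcnq5 had 0 of 5 higher and 2 lower. At the serotonin receptor gene Htr1a 0 of 6 5hmC peaks were higher and 1 lower, and at the dopamine receptor gene Drd1a 1 of 5 was higher and 0 lower.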

How the data were processed

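Cell types were FAC-sorted from cortices at embryonic day 14.5, and 5mC and 5hmC were immunoprecipitated (6 samples) beside input (6 samples). The authors aligned reads to mm10 (BWA 0.7.8), called peaks (SICER 1.1), merged those found in all replicates of a cell type, left out peaks overlapping repeats, so that repeats were not measured, and annotated the rest. Their methods name HOMER 4.7 for this, but the annotation columns do not have HOMER's usual names, so the tool behind the distances is uncertain. The deposited levels are log2 values after TMM scaling in DiffBind, 1 per cell type. The deposited expression values and TSS distances were used as a score, since the tables do not name the expression scale. The authors' own fold changes and p-values are also in the tables and were not used.

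Levels were subtracted, centred and counted past 0.58 (1.5-fold) with Python 3.11.15 and pandas 2.3.3, tested on simulated data. Peaks with gaps up to 50 kb formed groups, and 3 or more a cluster. Gene spans and promoter letters came from RefSeq (GRCm38.p6). The peaks named were, by rule, those with the largest steps at levels at or above the median, the farthest, the highest, those beside the 200 kb limit, and the leading genes, clusters and pairs. A peak that this rule names is not reported here. Intervals and hosts were ranked by far peaks. Members and lists were chosen with earlier results of these data known. Replicates were not separated and depth was not given with the levels, so nothing was tested between cell types. Alternatives changed the centring, distance, annotation, level, fold, gap and overlap.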

Additional observations from a re-analysis of the deposited data

How the results depend on the processing

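Of 172 values of 22 results under alternatives, 80 stayed within the 95% counting or order-statistic interval of the reported value. The other 92 moved out of it, and the cause was not tested. These intervals treat peaks as independent, which clustered peaks are not, and they ignore the smaller number of peaks in a subset. Another fold or gap also changes the measure itself. The 2 counts are therefore no measure of how robust the results are. No value moved without chromosomes 2, 4, 11 and X, chosen after seeing the data, and leaving out X alone removed only 0 far 5mC and 7 far 5hmC peaks. Without centring, the DP to neurons step had 16.1% of far 5mC peaks lower and 2.29% higher with a median change of -0.14 (15.8%, 2.32% and -0.18 of all 5mC peaks), and the median 5hmC change was -0.10 (all -0.023). Beyond 500 kb, 5mC was lower at 3.85% with a median of 0.075 in the first step (PP to DP), and in the second (DP to neurons) lower at 5.38%, higher at 12.3%, median 0.091. There, 5hmC was higher at 2.86% in the first step, and in the second lower at 10.5%, higher at 3.49%, median -0.12. Over 200 kb from every RefSeq gene, 5mC was lower at 2.15% and higher at 9.68% from PP to DP (median 0.10), and lower at 4.30% from DP to neurons (median 0.093). For 5hmC these peaks were lower at 6.06% and higher at 2.16% in the first step, and lower at 6.49% and higher at 5.63% in the second (median -0.099). At levels at or above the median, 5mC was lower at 0.556% and higher at 3.06% in the first step (all 1.27% and 1.31%), and lower at 3.76% and higher at 3.34% in the second (median 0.063; all 3.40%, 1.92% and 0.026). 5hmC was lower at 2.42% and higher at 1.97% in the first step (median -0.051; all 1.96%, 4.62% and -0.030), and lower at 4.92% and higher at 3.79% in the second (all 3.9% and 7.90%). With a fold of 2, lower and higher 5mC shares were 0.982% and 0.589%, then 3.80% and 1.05% (all 0.960% and 0.659%, then 3.30% and 0.704%), and those of 5hmC 0.269% and 2.34%, then 1.46% and 4.04% (all 0.560% and 5.07%, then 1.19% and 8.03%). Where the setting only restricts members by position, the shares over all peaks are those of the report. Over 200 kb from every coding gene, chosen after seeing the data, 5mC was lower at 8.48% in the second step (median 0.070), and 5hmC higher at 5.95% in the first and 7.75% in the second (median -0.098). Outside coding genes, also chosen after seeing the data, the second step gave a 5mC median of 0.058 and 7.91% higher for 5hmC. Overlap with the other mark, counted up to 1 kb apart, was 20.7% for 5mC and 12.4% for 5hmC (all 20.7% and 23.9%). It was 10% and 4.13% beyond 500 kb, and 4.30% and 1.73% over 200 kb from every RefSeq gene. Clusters held 31.8% and 37.0% of peaks with gaps of at most 20 kb, and 69.4% and 85.1% with 100 kb. The levels used carry neither depth nor replicate spread, and the authors' p-values were left aside. This limits every value, most of all folds at low levels and classes of under 200 peaks.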

Other observations

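Expression of the annotated gene was set beside the far peaks as a description. Genes with a far 5hmC peak had median listed values of 225 (PP), 280 (DP) and 354 (neurons), against 416, 431 and 412 over all annotated genes. For genes with a far 5mC peak they were 254, 354 and 384, against 478, 491 and 466. Of the far 5hmC peaks, 10.7% were higher in neurons than in PP where the annotated gene was at least 2 times higher in neurons (n = 646), and 13.4% where it was at least 2 times lower (n = 402). Both shares are near the 12.1% of all far 5hmC peaks, against 22.2% of all 5hmC peaks. Where the gene changed less, 11.8% of far 5hmC peaks were higher, and where it was under 50 in every cell type 13.3%. For 5hmC peaks in genes the first 2 classes gave 31.8% and 24.5%, and for nearer intergenic 5hmC peaks 22.4% and 19.4%. Since the annotated gene was the nearest coding gene for 50.3% of far 5hmC peaks, these classes describe the annotation.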
